A study of Mus musculus with 18 samples.

Results

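A set of 9 genes of peroxide reduction and of lipid peroxidation was followed in the retinal pigment epithelium (RPE) of mice in which 1 eye had been made to overexpress Nrf2. They are the glutathione peroxidases *Gpx1*, *Gpx2*, *Gpx3*, *Gpx4*, *Gpx7* and *Gpx8*, the CoQ10 reductase *Aifm2*, and the lipid enzymes *Acsl4* and *Lpcat3*. They were taken by name from a count table of 47729 genes. All 9 were found there, and all 9 were among the 18958 genes with enough counts to be tested. The libraries came from 9 mice labelled *rd1* at postnatal day 40 (P40). The study's methods count fewer *rd1* pairs at this age than the labels do, so the strain of each pair rests on the labels. The *rd1* mouse (FVB/N) has lost *Pde6b* function, and by the labels all animals of both groups carried this defect. In each mouse, 1 eye had received an AAV8 vector with the human *NFE2L2* (*Nrf2*) cDNA under the Best1 promoter plus AAV-Best1-GFP (capsid 7M8), and the fellow eye AAV-Best1-GFP alone. These 9 and 9 eyes are called Best1-Nrf2 and control. The comparison within a mouse asked which RPE genes respond to Nrf2 in the degenerating eye.

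The Best1 promoter restricts the vector's expression to the RPE. The RNA came from what the eyecup released after the retina had been taken off, so RNA of other cells of the eyecup could be included. A control eye was injected with the GFP vector and, if *rd1* as labelled, was degenerating as well, and it received less vector in total than its fellow eye, so the added vector and its Nrf2 cannot be told apart. No eye is labelled as wild type here.

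Glutathione peroxidases such as GPX1 to GPX4 reduce hydrogen peroxide or lipid hydroperoxides with electrons from glutathione. GPX4 is the member that reduces phospholipid hydroperoxides inside membranes, and its loss leads to ferroptosis, an iron-dependent death by lipid peroxidation. AIFM2 (FSP1) guards membranes by a separate route, by regenerating reduced CoQ10. ACSL4 and LPCAT3 act on the other side, since they activate polyunsaturated fatty acids and build them into the phospholipids that are oxidized in ferroptosis. The RPE is exposed to light and to oxygen from the choroid, and it takes up photoreceptor membranes rich in such lipids. Nrf2 is a transcription factor that turns on antioxidant genes.

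The 6 peroxidases differ in the residue that meets the peroxide. The coding sequence around it is shown because it divides the family into selenoproteins and cysteine enzymes, which bears on the selenoprotein genes described further on. The capitals mark the codon of the catalytic residue, and each line holds 27 bases, 5′ to 3′ on the coding strand, from the GENCODE transcripts.
Gpx1: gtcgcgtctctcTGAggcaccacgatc
Gpx2: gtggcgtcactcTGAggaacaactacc
Gpx3: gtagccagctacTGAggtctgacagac
Gpx4: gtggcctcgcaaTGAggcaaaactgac
Gpx7: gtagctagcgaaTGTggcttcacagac
Gpx8: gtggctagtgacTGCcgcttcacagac
In *Gpx1*, *Gpx2*, *Gpx3* and *Gpx4* the codon is TGA, annotated as selenocysteine at residues 47, 40, 73 and 73. A ribosome reads this codon as a stop unless the selenocysteine machinery recodes it in that transcript. In *Gpx7* (residue 56) and *Gpx8* (residue 79) the codon encodes cysteine.

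On GRCm38, *Gpx1* spans chr9:108338903-108340343 (plus strand, 2 exons) and *Gpx2* chr12:76792333-76795554 (minus strand, 2 exons). *Gpx3* spans chr11:54902453-54910377 (plus strand, 5 exons), and *Gpx4* chr10:80047166-80056439 (plus strand, 7 exons). *Gpx7* lies at chr4:108400390-108406961 (minus strand, 3 exons) and *Gpx8* at chr13:113042753-113046410 (minus strand, 3 exons). *Aifm2* is at chr10:61715263-61739260 (plus strand, 9 exons), *Acsl4* at chrX:142317993-142390535 (minus strand, 16 exons) and *Lpcat3* at chr6:124663027-124704418 (plus strand, 13 exons). All 9 are annotated as protein-coding. Some of their counts are uncertain. Of the 31-base words in *Gpx4* transcripts, 38.9% also occur in other annotated genes, nearly all of them in the pseudogene *Gpx4-ps2* (38.7%), whose own counts were not analysed here. Of *Gpx2* words, 9.64% occur elsewhere (9.24% in *Gpx2-ps1*), which weighs on a gene with few counts. *Gpx2* lies within *Fntb* and *Gpx8* within *Cdc20b*, both on the opposite strand. *Aifm2* overlaps *H2afy2* by 596 bases and *Lpcat3* overlaps *Emg1* by 334 bases, also on the opposite strand. The kit is not described as keeping strand, so reads from such partners cannot be told apart.

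The libraries held 18956748 to 49598700 counts, the smallest being control replicate 8. *Nfe2l2*, the mouse gene of the delivered factor, was examined first as a check of the labels. It was 76.7 CPM (counts scaled to a common library size by TMM) in the lowest, 83.0 in the median and 133.8 in the highest control eye, and 275, 457 and 704 CPM in the Best1-Nrf2 eyes. The groups did not overlap, and the log2 fold change was 2.29 (SE 0.21, adjusted p = 6.21e-05, edgeR), higher in 9 of 9 mice. Reads of the human cDNA that were assigned to the mouse gene cannot be told apart from its own. All 16 RPE markers were detected. Their sum was 14091 to 69691 CPM in control (median 42322) and 17109 to 79746 CPM in Best1-Nrf2 eyes (median 21912), higher in 4 of 9 mice. Of the 16 markers, 5 fell (*Rpe65*, *Rlbp1*, *Lrat*, *Rdh5* and *Rgr*) and none rose, with a median log2 fold change of -0.40. Among all genes tested, 1.13% fell and 3.12% rose. All 9 cone markers fell, from a summed 256 to 2038 CPM to 28.2 to 287.8 CPM. In mouse 6 alone this sum was higher in the Best1-Nrf2 eye, at 287.8 CPM beside 256.2 CPM. The other Best1-Nrf2 eyes were at 57.5 CPM or less. Of 8 rod markers tested, 3 fell and *Rom1* rose. In bulk RNA, fewer cells of a type and less RNA per cell cannot be told apart.

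The 9 genes differed widely in abundance. Levels were compared between genes as CPM per kilobase of transcript, and the order of the medians was the same in both groups. *Gpx4* was the most abundant, at 1307 to 5465 CPM per kilobase in control eyes (median 2183). *Gpx1* followed at 176 to 808 (median 400) and *Gpx3* at 17.8 to 418 (median 142.5) on the same scale. *Gpx8* (median 61.4) and *Lpcat3* (median 28.4) were intermediate. *Gpx7* (median 8.88), *Aifm2* (median 5.76) and *Acsl4* (median 2.29) were low, and *Gpx2* (median 0.204) was barely detected. In control eyes, 7 of 8 neighbouring pairs in this order differed (2-sided exact sign-flip permutation test over 9 eyes, adjusted p = 0.0062 to 0.036, where the smallest raw p is 0.0039). *Gpx3* and *Gpx8* did not pass the test (exact adjusted p = 0.082, *Gpx3* higher in 6 of 9 eyes). With 1 control eye left out, the exact adjusted p of this pair ran from 0.036 to 0.16, not past 0.05 in 8 of the 9 cases. The gap from *Gpx4* to *Gpx1* was 6.79-fold and present in 9 of 9 eyes. The difference between *Gpx1* and *Gpx3*, 2.47-fold, was the least secure of those that passed (7 of 9 eyes). Its exact adjusted p ran from 0.021 to 0.071 when 1 control eye was left out, and it was not past 0.05 in 7 of the 9 cases.

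**Figure D1:**
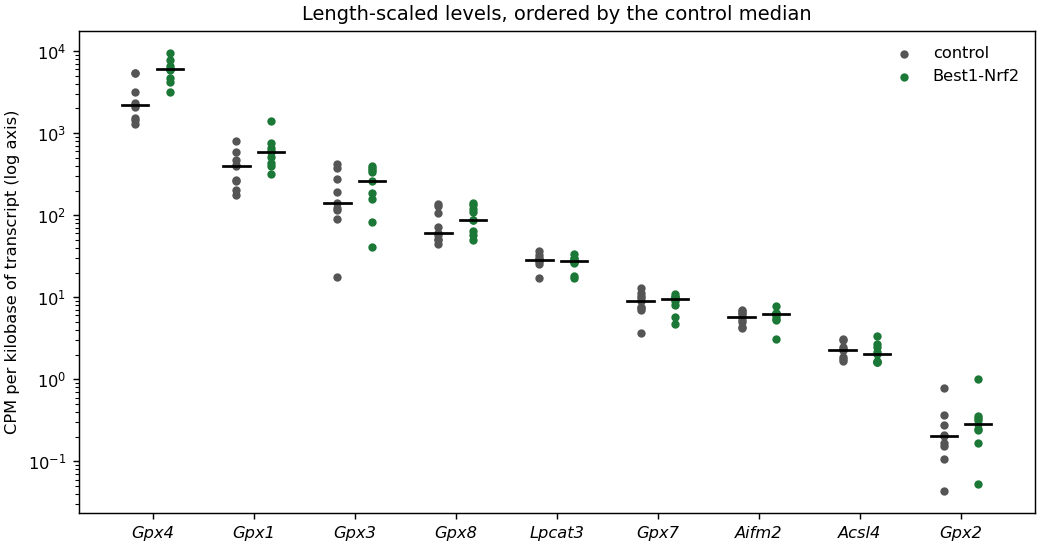
Level of each gene per eye in CPM per kilobase of transcript (log axis), with 1 point for each of 9 control (grey) and 9 Best1-Nrf2 (green) eyes and a bar at the group median. The genes are ordered by the control median, from *Gpx4* at 2183 to *Gpx2* at 0.204, and the Best1-Nrf2 medians fall in the same order.

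At a threshold of 0.05 on the adjusted p, the paired edgeR test called 0 of the 9 genes. At an unadjusted p under 0.05, 2 members and 2434 of all genes passed. Among all genes tested, 592 rose (3.12%) and 214 fell (1.13%) by the adjusted p. The 2 members were *Gpx4* and *Gpx1*, and in both the estimate was higher in the Best1-Nrf2 eye. The median log2 fold change of the 9 genes was 0.29, beside -0.03 for all genes tested. The number of members called differed between settings. DESeq2, which tested 23595 genes under its own filter, called 2 (*Gpx4* and *Gpx1*), and limma voom with sample weights called 1 (*Gpx4*), all higher. These fits also called more of all genes, with 4.34% of all genes higher by DESeq2 and 4.87% by limma voom.

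*Gpx4* had the largest estimate. It measured 1254 CPM in the lowest, 2093 in the median and 5241 in the highest control eye, and 3084, 5820 and 9060 CPM in the Best1-Nrf2 eyes. The groups overlapped, because 7 of 9 control eyes lay below the lowest Best1-Nrf2 eye and the controls of mice 3 and 5 lay far above the others. The log2 fold change was 1.23 (SE 0.34, 95% interval 0.50 to 1.97, adjusted p = 0.0691, edgeR). The Best1-Nrf2 eye was higher in 9 of 9 mice, a feature shared by 591 (3.12%) of all genes tested. The size of the difference varied widely. It was 6.48-fold in mouse 6, 5.95-fold in mouse 4 and 4.31-fold in mouse 8, but 1.12-fold in mouse 3 and 1.09-fold in mouse 5.

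A ratio of the eyes has the control value as its denominator, so a high control eye by itself gives a low ratio. *Gpx4* was at 1254, 1399 and 1470 CPM in the controls of mice 4, 6 and 8, the lowest of the group, and at 5201 and 5241 CPM in the controls of mice 3 and 5, the highest. The Best1-Nrf2 eyes of these 5 mice, which were picked for their ratios, were closer together, from 5704 to 9060 CPM. Those of all 9 mice ran from 3084 to 9060 CPM. Adjusted p for *Gpx4* was 0.0017 by DESeq2, 0.019 by limma voom with sample weights and 0.039 by edgeR when genes with low counts were kept, so the call turned on these settings. Leaving out 1 mouse at a time gave log2 fold changes of 1.05 to 1.41 and adjusted p of 0.063 to 0.17.

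Red blood cell markers and RPE markers were both high in some of these eyes. The sum of the 6 markers was over 2000 CPM in 4 eyes, the controls of mice 3 (2974 CPM) and 5 (3175 CPM) and the Best1-Nrf2 eyes of mice 3 (5347 CPM) and 6 (3646 CPM), and 295 to 1761 CPM in the others. These eyes included the 2 highest control eyes and the highest Best1-Nrf2 eye for *Gpx4*. The Best1-Nrf2 eye of mouse 3, with the highest red blood cell sum of all, was at its group median for *Gpx4* (5820 CPM). The same 4 eyes also had the highest sums of RPE markers, 53557 to 79746 CPM, with 43993 CPM or less in the others. None of the 5 red blood cell markers tested passed the test between groups. All 5 estimates were above 0, and the sum was higher in the Best1-Nrf2 eye in 7 of 9 mice. The defining globin genes were detected in both groups, and *Slc4a1* was near 0. Without mice 3, 5 and 6, the log2 fold change of *Gpx4* was 1.37 (adjusted p = 0.0853, edgeR) over 6 mice. Mice 3 and 5 had the lowest *Gpx4* ratios of the 9 and mouse 6 the highest, so this value does not separate blood from the other differences of these mice. The part of red blood cells or of RPE content in *Gpx4* was not tested.

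*Gpx1*, the cytosolic enzyme that reduces hydrogen peroxide, was next. Control eyes ran from 188.9 to 866.5 CPM with a median of 428.4, and Best1-Nrf2 eyes from 337.1 to 1514 CPM with a median of 635.5. The ranges overlapped broadly, with 4 control eyes below the lowest Best1-Nrf2 eye and 1 Best1-Nrf2 eye above the highest control. The log2 fold change was 0.69 (SE 0.22, 95% interval 0.22 to 1.17, adjusted p = 0.132, edgeR), and the Best1-Nrf2 eye was higher in 7 of 9 mice. Mouse 6 (2.90-fold) and mouse 8 (2.41-fold) had the highest ratios, whereas mouse 5 was at 0.826-fold. By DESeq2 the adjusted p was 0.030. Without mice 3, 5 and 6 the log2 fold change was 0.78 (adjusted p = 0.140, edgeR).

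*Gpx3* encodes the secreted, extracellular peroxidase. It was the most variable of the abundant members, at 28.4 to 666 CPM in control eyes (median 227) and 64.9 to 642 CPM in Best1-Nrf2 eyes (median 418). Only 4 of 9 mice had more in the Best1-Nrf2 eye, and the mice went in opposite directions, from 0.426-fold in mouse 6 to 10.5-fold in mouse 8. The log2 fold change was 0.40 (SE 0.44, 95% interval -0.57 to 1.36, adjusted p = 0.831, edgeR). It was 0.09 without mouse 8, whose control eye had the lowest value (28.4 CPM) and the smallest library, 0.61 without mouse 5 or mouse 6, and 0.74 without mice 3, 5 and 6.

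*Gpx7* and *Gpx8*, the cysteine enzymes of the endoplasmic reticulum, did not pass the test. *Gpx8* was at 46.9 to 145 CPM in control eyes (median 64.0) and 52.0 to 146 CPM in Best1-Nrf2 eyes (median 92.2). Its log2 fold change was 0.29 (SE 0.25, 95% interval -0.26 to 0.84, adjusted p = 0.742, edgeR), with 5 of 9 mice higher. It was 0.14 without mouse 8 and 0.17 without mouse 4, but 0.42 without mouse 2 or mouse 5. *Gpx7* was at 4.79 to 16.8 CPM (median 11.5) and 6.06 to 14.3 CPM (median 12.2), respectively. Its log2 fold change was 0.0032 (SE 0.24, 95% interval -0.52 to 0.52, adjusted p = 0.999, edgeR), and its sign changed between settings.

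*Gpx2*, best known from the gut epithelium, was at the limit of detection. The libraries held 2 to 33 counts each, or 0.046 to 0.831 CPM in control (median 0.218) and 0.056 to 1.07 CPM in Best1-Nrf2 eyes (median 0.308). With a log2 fold change of 0.45 and a 95% interval of -0.83 to 1.73 (adjusted p = 0.860, edgeR, 6 of 9 mice higher), a difference was not detectable at this depth. The estimate ran from 0.15 without mouse 8 to 0.85 without mouse 7. The remaining members of the family, *Gpx5* and *Gpx6*, had 18 and 1 counts over all 18 libraries and were not tested.

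*Aifm2* had the narrowest interval among the protective genes. Control eyes were at 13 to 21.4 CPM (median 17.8) and Best1-Nrf2 eyes at 9.49 to 24.4 CPM (median 19.1), with almost complete overlap. The log2 fold change was 0.04 (SE 0.18, 95% interval -0.35 to 0.44, adjusted p = 0.966, edgeR), with 6 of 9 mice higher. The Best1-Nrf2 eye of mouse 6 was the lowest of all 18, at 9.49 CPM.

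*Acsl4* and *Lpcat3*, which supply oxidizable phospholipids, had estimates slightly below 0. *Acsl4* was at 8.95 to 16.6 CPM in control eyes (median 12.1) and 8.52 to 17.7 CPM in Best1-Nrf2 eyes (median 10.8). Its log2 fold change was -0.14 (SE 0.17, 95% interval -0.50 to 0.23, adjusted p = 0.847, edgeR), and 3 of 9 mice were higher. *Lpcat3* was at 38.7 to 82.8 CPM (median 64.8) and 39.2 to 77.6 CPM (median 62.7), respectively. Its log2 fold change was -0.11 (SE 0.14, 95% interval -0.42 to 0.20, adjusted p = 0.862, edgeR), and 4 of 9 mice were higher. These were the tightest intervals of the 9 genes. The estimates were small enough for 1 mouse to move them. *Acsl4* ranged from -0.19 without mouse 6 to -0.034 without mouse 1, and *Lpcat3* from -0.17 without mouse 5 to -0.036 without mouse 6. Without mice 3, 5 and 6 together, *Acsl4* was at -0.28 and *Lpcat3* at -0.11.

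**Figure D2:**
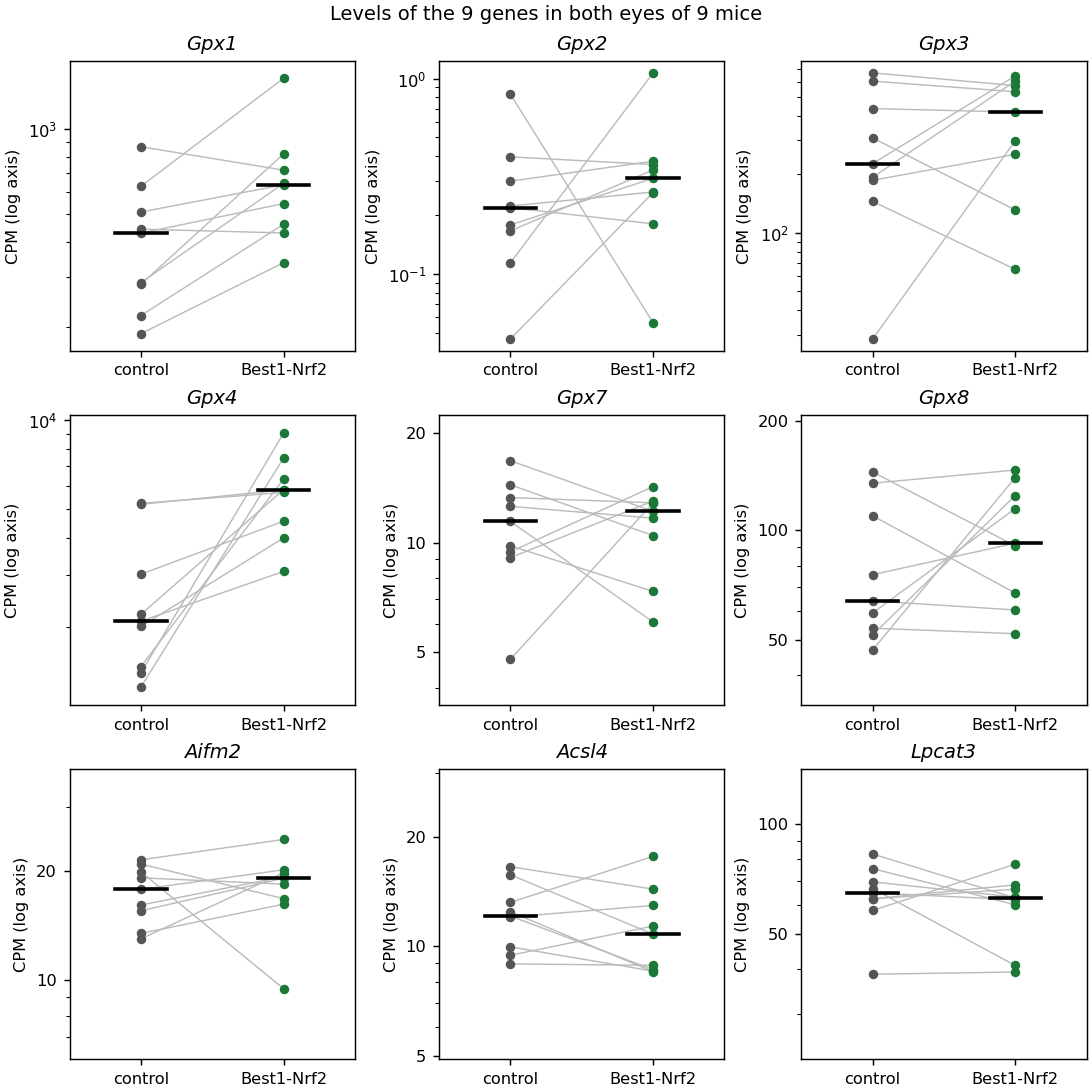
CPM of each gene (log axis, 1 panel a gene) in the control (grey) and Best1-Nrf2 (green) eye of 9 mice, with lines joining the eyes of a mouse and bars at the group medians. All 9 lines of *Gpx4* go up, with control eyes from 1254 to 5241 CPM, whereas those of *Gpx3* and *Gpx7* cross.

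**Figure D3:**
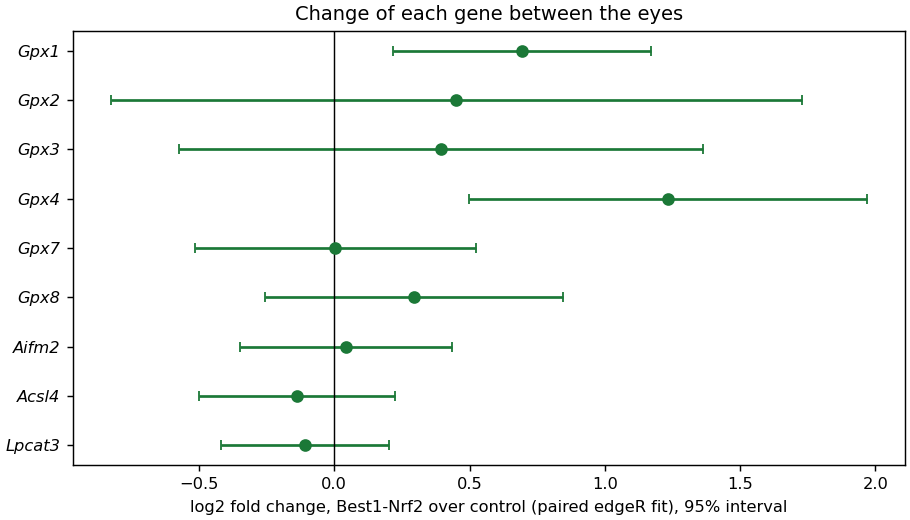
Log2 fold change of each gene, Best1-Nrf2 over control, from the paired edgeR fit (points) with its 95% interval (bars). The intervals of *Gpx4* (0.50 to 1.97) and *Gpx1* (0.22 to 1.17) lie above 0 before adjustment over all genes, and those of the other 7 genes include 0.

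The genes around these 9 were examined in 3 lists. The first holds 22 further genes of ferroptosis defence, among them genes of glutathione synthesis, iron storage and export, CoQ10 and tetrahydrobiopterin supply, and monounsaturated lipids. Of these, 11 rose, 1 fell and 10 did not pass the test, with a median log2 fold change of 1.21, where 3.12% of all genes rose and 1.13% fell. *Gclc*, the catalytic subunit of the rate-limiting enzyme of glutathione synthesis, rose from 60.8 ± 20.2 to 1972 ± 1221 CPM (SD, n = 9 each). Its log2 fold change was 4.72 (SE 0.45, adjusted p = 7.79e-05, edgeR). The iron exporter *Slc40a1* (log2 fold change 3.90, adjusted p = 0.000231), the cystine transporter *Slc7a11* (3.53, adjusted p = 0.000162) and *Gclm*, the modifier subunit (3.43, adjusted p = 8.06e-06), rose in 9 of 9 mice. *Gch1*, which makes the antioxidant cofactor tetrahydrobiopterin, fell from 82.6 ± 13.8 to 45.7 ± 10.2 CPM (SD, n = 9 each; log2 fold change -0.86, adjusted p = 0.0056, edgeR). The estimates of *Gclc*, *Gclm* and *Slc7a11*, which supply glutathione, lay above the upper interval limit of *Gpx4*, 1.97, but the difference between these genes and *Gpx4* was not tested.

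The second list holds 26 genes of lipid peroxidation and iron supply, among them lipoxygenases, desaturases, plasmalogen enzymes, iron importers, heme oxygenase and oxidoreductases. Of 25 tested, 1 rose, 0 fell and 24 did not pass, with a median log2 fold change of -0.18. A single call among 25 genes is near the share of all genes that rose (3.12%). The 1 that rose was *Hmox1*, heme oxygenase, which frees iron from heme (31 ± 3.77 to 863 ± 526 CPM, SD, n = 9 each; log2 fold change 4.50, adjusted p = 5.50e-05, edgeR). *Acsl4* and *Lpcat3* act in the same pathway.

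The third list holds 28 genes that make selenoproteins or encode other selenoproteins, which share the TGA codon shown above for *Gpx1* to *Gpx4*. Of 27 tested, 1 rose, 0 fell and 26 did not pass, with a median log2 fold change of 0.07. A single call among 27 genes is again near the share of all genes that rose (3.12%). The 1 that rose was *Txnrd1*, the cytosolic thioredoxin reductase (log2 fold change 4.08, adjusted p = 4.13e-05, edgeR). These lists were chosen with results of these libraries known, so their counts are descriptions.

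**Figure D4:**
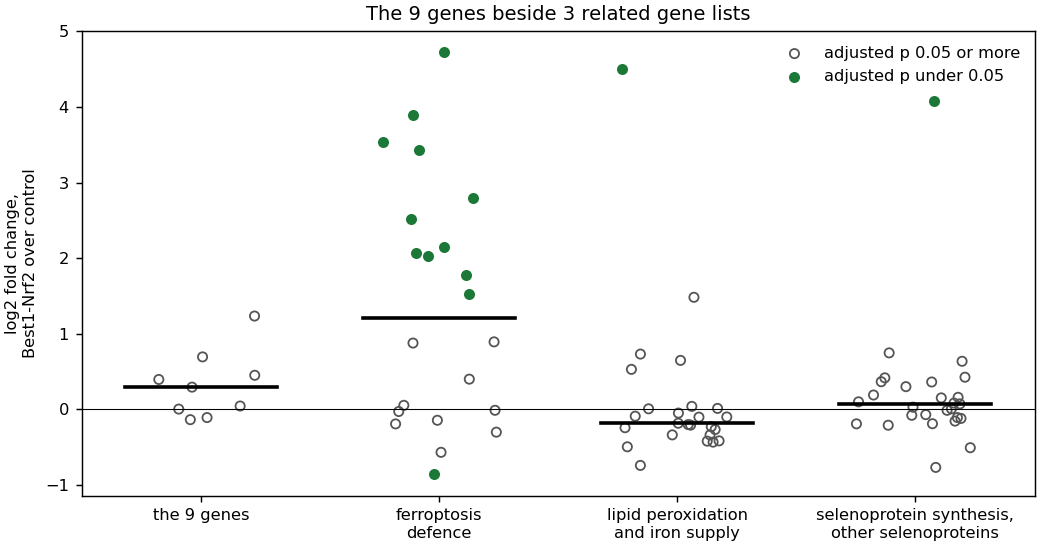
Log2 fold change, Best1-Nrf2 over control, of each tested gene in the 9-gene group and in 3 related lists (filled points, adjusted p under 0.05; open points, not), with bars at the medians. The ferroptosis defence list has 12 filled points and a median of 1.21, whereas the other lists have 1 filled point each, *Hmox1* at 4.50 and *Txnrd1* at 4.08.

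Markers of other cells were counted in the same way, where 3.12% of all genes rose. Of 14 macrophage and microglia markers, 8 rose, with a median log2 fold change of 1.65 over the list. Those that rose included the complement genes *C1qa*, *C1qb* and *C1qc* (log2 fold changes of 1.93, 1.83 and 1.93, each higher in 9 of 9 mice, edgeR). Their sum was 153 to 496 CPM in control (median 234) and 166 to 678 CPM in Best1-Nrf2 eyes (median 433), higher in 7 of 9 mice, with ranges that overlapped. *Csf1r*, the largest part of the control sum, was at 135.7 and 59.6 CPM (group means) and did not pass the test (log2 fold change -0.97, adjusted p = 0.113, edgeR). Of 9 fibroblast and sclera markers, 1 rose, a count too small to set apart from that share. All 9 estimates were above 0, with a median log2 fold change of 0.56, beside -0.03 for all genes tested. Their sum was 193 to 654 CPM in control and 395 to 756 CPM in Best1-Nrf2 eyes, higher in 7 of 9 mice. The part of these cells in the values of the 9 genes was not tested.

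The genes whose within-mouse differences ran most nearly parallel to those of 4 members were listed from 11808 expressed genes, by Pearson's r over 9 mice. For *Gpx4* these were *Fbxo36* (r = 0.995), *1110032A03Rik* (0.992) and *Cpne8* (0.981). For *Gpx1* they were *Myl6* (0.989), *Hist2h2aa1* (0.984) and *Srrm1* (0.980). For *Aifm2* they were *Prss23* (0.976), *Hspa2* (0.970) and *Slc25a35* (0.966), and for *Acsl4* *Zfp365* (0.924), *Rai1* (0.922) and *Clcn5* (0.889). These are the highest of many values over few mice and share libraries and depth, so they are descriptions. None of the 12 genes passed the test between groups.

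Nrf2 binds DNA at antioxidant response elements. The core letters TGACNNNGC were searched on both strands in the RefSeq promoter windows of the 9 genes, 300 bases around each start (GRCm38.p6). None of 12 windows held a match, and 12.4% of all 32851 windows did. This says only that these letters are not in these windows.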

How the data were processed

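RNA of 18 eyes was profiled, 9 per group, and both eyes of a mouse share its number in the labels. The authors ran STAR against mm10 with Ensembl release 91 annotation and, in parallel, estimated levels by Salmon (0.8.1 in the submitters' processing notes, which also list FastQC), brought into DESeq2 by tximport. Values in the deposited table are expected counts for each Ensembl gene, unscaled, as integers. This unit was inferred from the values. Libraries were sequenced in 2 runs, and which library was in which run is not given in the sources used here. RNA was amplified without described molecular identifiers, so an interval from the counts of a single library would cover counting error only. The intervals given here come from the paired fit over 9 mice and include the spread between mice. The study's methods state 4 pairs for P40 *rd1* and 5 for P40 wild-type CD1, whereas the labels list 9 pairs, all as *rd1*. Which of these pairs the methods count was not resolved, and all 9 were used as labelled.

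edgeR 4.0.16 in R 4.3.3 was used with filterByExpr, TMM scaling and a quasi-likelihood model with mouse as a block, and Benjamini-Hochberg adjustment covered 18958 genes (threshold 0.05). The SE came from the F statistic, and log2 CPM used a prior count of 2. Symbols were found for 47310 of 47729 gene IDs. Coordinates and transcripts were from GENCODE mouse release 21 on GRCm38, and promoter windows from RefSeq (GRCm38.p6). The pairing is that of the animal. After removal of group means, the correlation between a mouse's eyes had a median of -0.00095 (-0.37 to 0.64). Libraries of a group were not duplicates (chi-square per degree of freedom of 49.5 or more over 72 pairs). Named were the 9 genes, *Nfe2l2*, up to 4 genes with the largest rise and fall among those called in each list, and the 3 genes most like each of 4 members (mean log2 CPM, 2 or more). The called RPE markers, *Rom1*, *Csf1r*, the complement genes, *Pebp1* and *Selenop* fall outside this rule and were named after their values were seen. Members and lists were chosen with earlier results of these data known. Alternatives were no block, RLE or upper-quartile scaling, DESeq2 1.42.0, limma 3.58.1 voom with sample weights, other count filters, a threshold of 0.1 and leaving out mice. The edgeR and sign-flip steps were tested on simulated data.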

Additional observations from a re-analysis of the deposited data

Results flagged for a closer look

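Within the groups of 9 eyes, 20 sets of log2 CPM values were screened for a single eye that stood far from the rest, and 5 were found where about 1 would arise by chance. Control replicate 8, the smallest library, accounted for 3 of them. It was the lowest control eye for *Gpx3*, at 4.833 on the log2 CPM scale (next eye, 7.183), and for *Gpx7*, at 2.275 (next eye, 3.196), and the highest for *Nfe2l2*, at 7.064 (next eye, 6.600). Best1-Nrf2 replicate 6 was the lowest of its group for *Aifm2*, at 3.254 (next eye, 4.022). Control replicate 3 was the lowest of its group for *Lpcat3*, at 5.276 (next eye, 5.858).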

How the results depend on the processing

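The number of the 9 genes called was 0 in the reported fit, 2 with DESeq2, and 1 each with limma voom with sample weights, with no count filter and at an adjusted p threshold of 0.1. It was 0 when any 1 mouse was left out and without the replicate block, where *Gpx4* had a log2 fold change of 1.12 (adjusted p = 0.0541, edgeR). For lipid peroxidation and iron supply, 2 genes were called with no replicate block, with DESeq2, with limma voom and at the 0.1 threshold (the second there being *Pebp1*, adjusted p = 0.0581), and 1 to 2 when 1 mouse was left out (2 without mouse 1). For selenoproteins the number was 2 with DESeq2, with limma voom and at the 0.1 threshold (the second there being *Selenop*, adjusted p = 0.0673), and 1 to 2 when 1 mouse was left out (2 without mouse 6). Over all genes, 1636 were called with DESeq2, 1426 with limma voom and 742 with no replicate block. With no count filter, 807 of 35910 genes were called, and at the 0.1 threshold 1030 of 18958. The number was 540 to 1046 when 1 mouse was left out. After the data had been seen, mice 3, 5 and 6 were left out for their red blood cell markers, which gave 500 genes in all, and 0 of the 9 genes. The sign of small differences changed: *Gpx2* was at -0.23 with limma voom, and *Aifm2* at -0.0013 with upper-quartile scaling and -0.022 to 0.18 when 1 mouse was left out (-0.022 without mouse 8). *Gpx7* was at -0.014 with no replicate block, -0.015 with at least 10 counts in every library, -0.039 with upper-quartile scaling, -0.15 with limma voom and -0.16 to 0.12 when 1 mouse was left out (below 0 without mouse 4, 6 or 8). The cause was not tested. *Gpx4*, *Gpx1*, *Gpx3*, *Gpx8*, *Acsl4* and *Lpcat3* kept their sign under every setting run. *Gpx2* did not pass the count filter at 10 counts in every library, without mouse 5, without mouse 6 or without mice 3, 5 and 6, so it has no value there. The run of each library is not known and could not be used as a term. With 9 pairs and few counts, small changes of *Gpx2* could not be seen.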
